A study of Rattus norvegicus with 39 samples.

Results

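Nucleolar ribosome biogenesis factors were described here as a set of 10 genes: Nop56, Nop58, Fbl, Nolc1, Rrp9, Wdr43, Tsr1, Ncl, Ddx21 and Npm1. A member was taken from the probe sets (groups of short probes that together measure one transcript) to which the platform annotation gives its symbol and no other. By that rule 9 of the 10 genes were measured, on 11 probe sets of 15866 tested, and the array named 10411 genes in all in this way. Each gene was represented by the probe set with the highest mean over all arrays; Nolc1 had 3 probe sets and the other 8 genes 1 each. The 3 probe sets annotated to Npm1, the gene of nucleophosmin, also carry a pseudogene's symbol, so Npm1 was not analysed here.

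Ribosomes are assembled in the nucleolus, where RNA polymerase I transcribes the ribosomal RNA precursor and a large set of proteins and small nucleolar RNAs folds, modifies and cuts it. Box C/D small nucleolar ribonucleoproteins, built on Nop56, Nop58 and the methyltransferase fibrillarin (Fbl), guide methylation of the precursor, and one of them, U3, is needed to cut out the small subunit's RNA. Genes of this pathway are known to be raised together when cells prepare to grow, and in liver after injury or partial hepatectomy.

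The rats were 8 weeks old Sprague Dawley animals that received 1 dose of ANIT (1-naphthylisothiocyanate, a toxicant of the biliary epithelium) of 50 mg/kg dissolved in corn oil. Control rats received the oil without ANIT (10 ml/kg). Livers were sampled 2 or 6 h after dosing, and either biliary epithelium or hepatocytes were cut from sections by laser capture microdissection. These 8 groups held 39 arrays, with 4 for vehicle bile duct at 6 h and 5 for each other group. The labels call the arrays of a group biological replicates. Captured RNA was amplified before hybridisation, and the values are log2 intensities. The captured regions matched their labels: the mean level of 13 measured cholangiocyte markers was 6.95 to 8.50 on bile duct arrays and 3.27 to 3.63 on hepatocyte arrays, and that of 17 hepatocyte markers was 10.2 to 10.6 on hepatocyte arrays. On bile duct arrays the hepatocyte markers ran from 3.63 to 8.42, so those captures held hepatocyte RNA in differing amounts. In captured tissue, fewer cells of a type and less RNA per cell cannot be told apart. The spread of an array, the SD over all its log2 values, was 2.22 to 2.37 on hepatocyte arrays and 1.68 to 2.18 on bile duct arrays. All 4 vehicle bile duct arrays at 6 h (1.68 to 1.88) and replicates 2 and 4 of ANIT bile duct at 2 h (1.76 and 1.88) lay at its low end, and results that rest on them are given below with and without them.

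Promoter windows from 250 bases before to 50 bases after the annotated start were found in RefSeq (build GRCr8) for 9 of the 10 genes, Npm1 among them; Wdr43 had none. Since 7 of the 9 measured members rose in bile duct at 6 h, 2 motifs were searched in these windows on both strands. These were CACGTG, the E-box bound by factors of the MYC family, and CCGGAAG (or its reverse complement CTTCCGG), the core bound by ETS family factors, which was picked after the sequences had been seen. CCGGAAG occurred in the windows of 5 members (Ddx21, Nop58, Fbl, Nolc1 and Tsr1) and in 8.75% of all 33469 promoter windows, and CACGTG in those of 2 (Fbl and Tsr1) and in 6.42% of all. The 120 bases before the start are shown 5′ to 3′ for Ddx21, Nop58 and Fbl, the 3 members whose response in bile duct was called larger at 6 h than at 2 h, with CCGGAAG or CTTCCGG in capitals. They lie at chr20:31097239-31097358 (minus strand), chr9:68614954-68615073 (plus strand) and chr1:92597287-92597406 (plus strand). Counted from the start, the motif began at positions -67, -75 and -66. The calls that picked these 3 members did not hold without the 2 low-spread ANIT arrays at 2 h, as given below.
Ddx21: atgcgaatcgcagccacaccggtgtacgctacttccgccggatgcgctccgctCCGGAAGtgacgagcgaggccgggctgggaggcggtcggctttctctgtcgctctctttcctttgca
Nop58: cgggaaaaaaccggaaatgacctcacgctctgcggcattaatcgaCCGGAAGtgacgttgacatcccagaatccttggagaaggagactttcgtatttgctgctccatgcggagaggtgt
Fbl: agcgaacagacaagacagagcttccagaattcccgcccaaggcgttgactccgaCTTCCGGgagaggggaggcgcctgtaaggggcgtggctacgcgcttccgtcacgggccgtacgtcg

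For comparison, the same stretch is shown for Rrp9 (chr8:115996060-115996179, plus strand), which was called higher in bile duct at 2 h and had neither motif in its window, and 30 bases around the E-box for Fbl (chr1:92597416-92597445) and Tsr1 (chr10:60258798-60258827), both on the plus strand with CACGTG in capitals. Those 2 E-boxes lay after the start, from base 22 and base 21. Nop56, Ncl and Npm1 also had neither motif in their windows, and Ncl rose in bile duct at 6 h. Tsr1, like Rrp9 called higher at 2 h, had both. The stretches shown therefore do not tie a motif to the timing of a response. A match is a description of the letters and says nothing on which factor was bound.
Rrp9: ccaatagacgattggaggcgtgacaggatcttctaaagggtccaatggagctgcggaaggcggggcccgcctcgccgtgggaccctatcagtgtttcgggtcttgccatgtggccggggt
Fbl E-box: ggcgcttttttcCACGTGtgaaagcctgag
Tsr1 E-box: gtttactcggtgCACGTGggcagttagaat

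In bile duct 6 h after ANIT, 7 of the 9 measured members rose: Ddx21, Nop58, Wdr43, Fbl, Tsr1, Nolc1 and Ncl, by 3.30-fold to 7.47-fold. Nop56 and Rrp9 did not pass. At 2 h, 2 of 9 rose, Rrp9 and Tsr1. In hepatocytes no member passed at either time, although 8 of 9 at 2 h and 9 of 9 at 6 h were above vehicle. The median log2 difference of the 9 genes was 0.94 and 1.84 in bile duct at 2 and 6 h, and 0.23 and 0.45 in hepatocytes. Over all probe sets the medians were 0.03, -0.05, 0.01 and 0.03, and limma called 0.258% higher in bile duct at 2 h, 5.17% higher at 6 h, and 0% in hepatocytes at either time. In bile duct every ANIT array lay above every vehicle array for 2 members at 2 h and 8 at 6 h, against 1.33% and 8.33% of all probe sets, and in hepatocytes for 0 and 2 members, against 0.561% and 0.939%. The calls use a Benjamini-Hochberg adjusted p under 0.05 over all 15866 probe sets, and errors of log2 differences are standard errors.

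**Figure D1:**
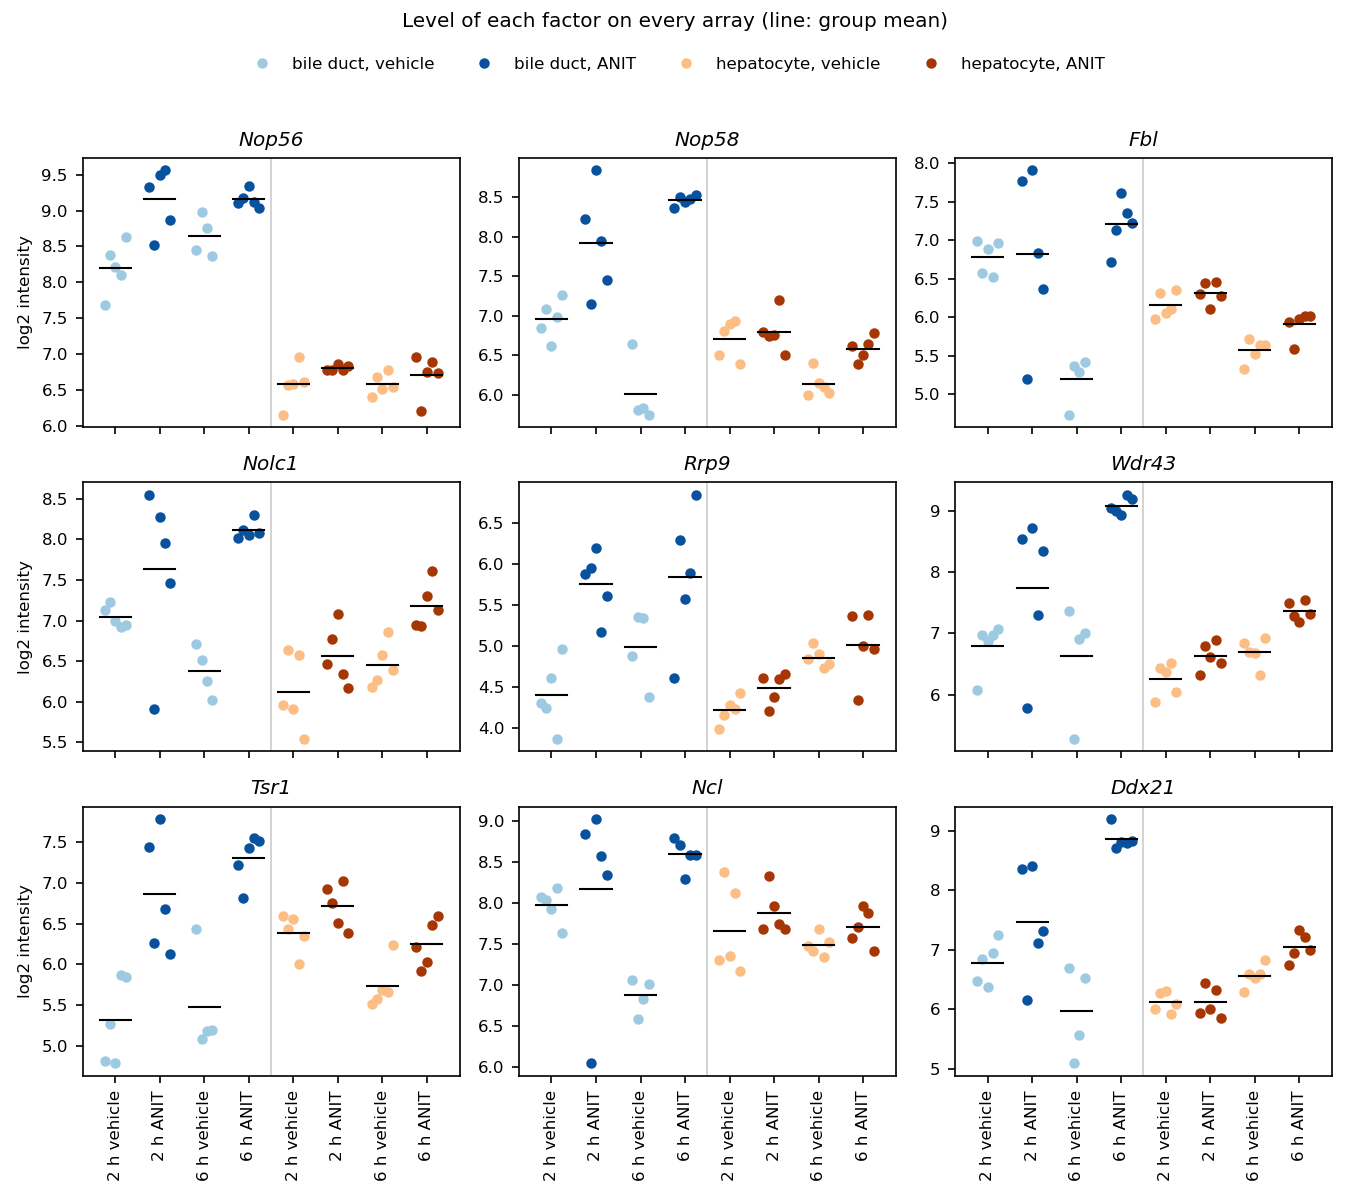
Log2 intensity of each of the 9 measured factors (vertical axes, each with its own range) on every array of the 8 groups (horizontal axis), with points for arrays and a line for the group mean. In bile duct at 6 h the ANIT points of 8 genes lie wholly above the vehicle points, Rrp9 being the exception, while replicate 2 of ANIT bile duct at 2 h is the lowest of its group for 7 genes, Ncl at 6.04 among them.

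**Figure D2:**
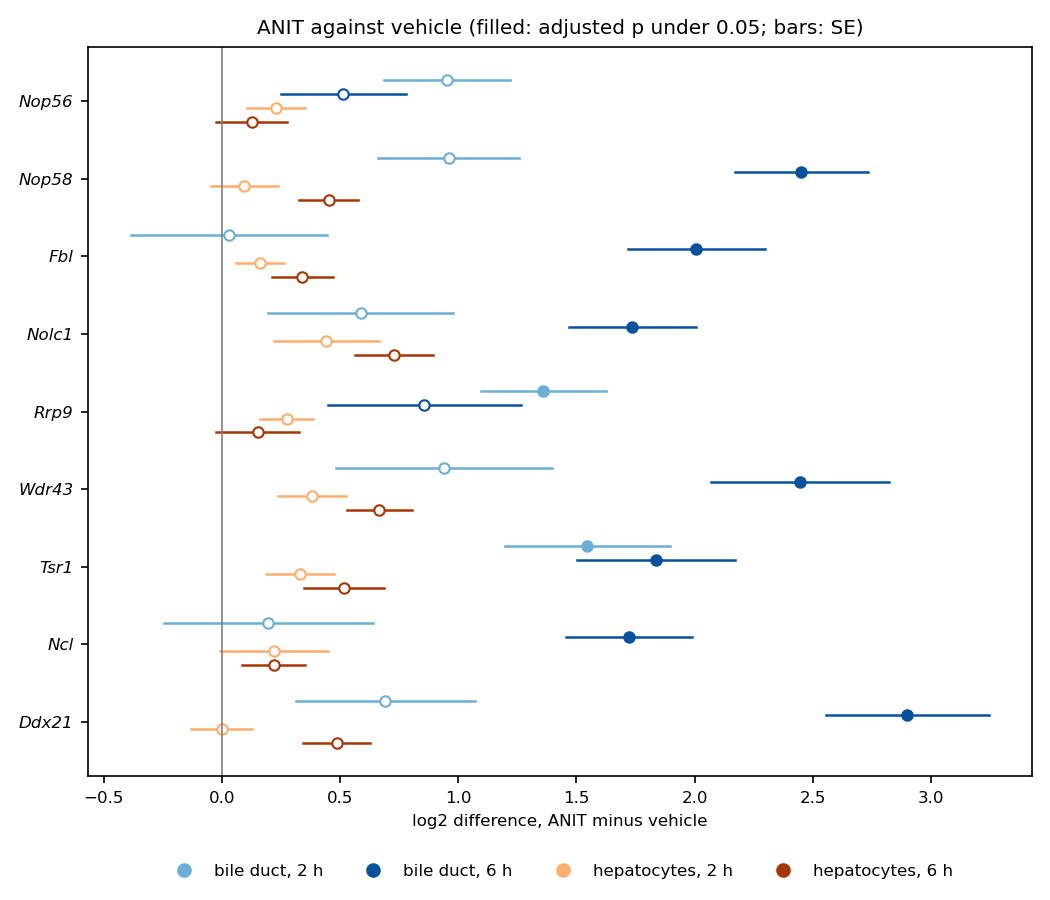
Log2 difference of ANIT from vehicle (horizontal axis) for each factor in bile duct and hepatocytes at 2 and 6 h, with bars for the standard error and filled points for an adjusted p under 0.05. The bile duct points at 6 h lie between 0.51 (Nop56) and 2.90 (Ddx21), and the hepatocyte points between 0.00 and 0.73.

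Among the box C/D proteins, Nop58 changed most. Nop58, a scaffold of the box C/D particle, read 6.64, 5.81, 5.84 and 5.75 in vehicle bile duct at 6 h and 8.36, 8.50, 8.44, 8.48 and 8.53 after ANIT. All ANIT arrays lay above all vehicle arrays and within a narrow band (8.36 to 8.53). It was 5.47-fold higher (log2 2.45 ± 0.28, adjusted p = 0.000691), rank 7 by p among all probe sets. At 2 h its values were 8.23, 7.15, 8.84, 7.95 and 7.45 after ANIT, against 6.62 to 7.27 in vehicle. The groups overlapped through replicate 2 alone, and the difference of 0.96 ± 0.30 did not pass (adjusted p = 0.123).

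Fbl, the methyltransferase, gave 7.77, 5.19, 7.91, 6.84 and 6.37 in bile duct 2 h after ANIT, so 2 arrays stood above all vehicle arrays (6.52 to 6.99) and 2 below them. The mean difference there was 0.03 ± 0.41. At 6 h it read 6.72, 7.13, 7.61, 7.36 and 7.22 after ANIT and 4.73, 5.36, 5.29 and 5.42 in vehicle, with no overlap. That made 4.02-fold (log2 2.01 ± 0.29, adjusted p = 0.0024). The ANIT arrays at 6 h were near the vehicle arrays at 2 h. Vehicle bile duct itself was lower at 6 h than at 2 h, as given below. Against the 2 h vehicle arrays, a control chosen after the data had been seen, the difference was 0.42 (adjusted p = 0.219).

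Nop56, the other scaffold of the particle, had its larger difference at 2 h. Its values were 9.33, 8.52, 9.49, 9.56 and 8.87 after ANIT and 7.68, 8.38, 8.22, 8.10 and 8.63 in vehicle, an overlap of 1 array on each side. The difference was 0.95 ± 0.27 (1.93-fold, adjusted p = 0.0899). At 6 h the 5 ANIT arrays (9.04 to 9.34) all stood just above the 4 vehicle arrays (8.37 to 8.98), by 0.51 ± 0.27 (adjusted p = 0.261). The mean after ANIT was 9.15 at both times. Nop56 thus differed from Nop58 and Fbl in its vehicle level at 6 h, which was not below that at 2 h (8.64 ± 0.28 and 8.20 ± 0.35, SD).

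Nolc1, a phosphoprotein that accompanies small nucleolar ribonucleoproteins between nucleolus and Cajal bodies, read 8.01, 8.12, 8.05, 8.30 and 8.08 in bile duct 6 h after ANIT and 6.71, 6.51, 6.26 and 6.02 in vehicle. The groups did not overlap, and the gene was 3.33-fold higher (log2 1.74 ± 0.27, adjusted p = 0.00318). At 2 h, 4 ANIT arrays (7.46 to 8.55) lay above every vehicle array (6.92 to 7.23) and replicate 2, at 5.91, below them all, for a difference of 0.59 ± 0.39 (adjusted p = 0.451). The 3 Nolc1 probe sets disagreed at 6 h. The second gave 5.29-fold (log2 2.40 ± 0.37, adjusted p = 0.0032), while the third gave -0.08 ± 0.38 (adjusted p = 0.926) with ANIT arrays from 2.52 to 4.53 and vehicle arrays from 3.22 to 3.67. At 2 h the second gave 0.58 ± 0.48 (adjusted p = 0.555) with overlap. The third gave 0.88 ± 0.26 there without overlap (adjusted p = 0.107).

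Of the small subunit factors, Rrp9, the U3-specific WD repeat protein, was the clearest at 2 h. It gave 5.88, 5.95, 6.20, 5.17 and 5.61 in bile duct after ANIT against 4.31, 4.25, 4.61, 3.87 and 4.97 in vehicle, with no overlap. That was 2.57-fold (log2 1.36 ± 0.27, adjusted p = 0.0262). At 6 h its ANIT values scattered more, at 4.62, 6.30, 5.58, 5.89 and 6.85, and overlapped vehicle (4.88, 5.36, 5.35 and 4.38). The difference of 0.86 ± 0.41 did not pass (adjusted p = 0.22).

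Tsr1, which acts on late precursors of the small subunit, was the one member that passed in bile duct at both times. At 2 h it gave 7.44, 6.26, 7.79, 6.68 and 6.13 after ANIT and 4.81, 5.27, 4.78, 5.87 and 5.84 in vehicle, with no overlap (2.92-fold, log2 1.55 ± 0.35, adjusted p = 0.0456). At 6 h it gave 7.22, 6.82, 7.43, 7.56 and 7.52 after ANIT and 6.44, 5.08, 5.18 and 5.19 in vehicle, again with none (3.57-fold, log2 1.84 ± 0.33, adjusted p = 0.00677). The Rrp9 and Tsr1 calls at 2 h changed with single arrays. With any 1 of the 10 arrays left out, Rrp9 passed in 4 of the 10 fits (without vehicle replicate 5 or ANIT replicate 2, 4 or 5) and Tsr1 in 2 (without ANIT replicate 2 or 5), with differences of 1.23 to 1.51 and 1.31 to 1.73.

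Wdr43, a subunit of the early complex that joins transcription to processing of the precursor, read 9.04, 9.0, 8.92, 9.26 and 9.19 in bile duct 6 h after ANIT. Vehicle gave 7.36, 5.28, 6.91 and 7.0, all lower, and the gene was 5.44-fold higher (log2 2.44 ± 0.38, adjusted p = 0.00318). At 2 h its ANIT arrays read 8.54, 5.79, 8.71, 7.30 and 8.34, of which 4 exceeded every vehicle array (6.08 to 7.07). The difference of 0.94 ± 0.46 did not pass there (adjusted p = 0.309). Without the 2 low-spread ANIT arrays it was 1.73 and passed (adjusted p = 0.0139), the one change of call among members that this omission gave toward passing at 2 h, while Tsr1 (1.81, adjusted p = 0.0531) no longer passed.

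Ddx21, an RNA helicase that binds ribosomal DNA transcription sites and small nucleolar RNAs, showed the largest difference of the 9. In bile duct at 6 h it read 9.20, 8.71, 8.81, 8.79 and 8.83 after ANIT and 6.69, 5.09, 5.57 and 6.52 in vehicle. The lowest ANIT array stood well above the highest vehicle array, and the gene was 7.47-fold higher (log2 2.90 ± 0.35, adjusted p = 0.000811, rank 10 of all probe sets). At 2 h only replicates 1 and 3 of ANIT (8.36 and 8.41) stood clearly above vehicle (6.37 to 7.25), replicate 5 read 7.31, and replicates 2 and 4 (6.15 and 7.12) did not. The difference was 0.69 ± 0.38 (adjusted p = 0.363).

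Ncl, the gene of nucleolin, an abundant RNA-binding protein of the nucleolus, read 8.80, 8.71, 8.29, 8.59 and 8.59 in bile duct 6 h after ANIT and 7.06, 6.59, 6.83 and 7.01 in vehicle. With no overlap it was 3.30-fold higher (log2 1.72 ± 0.27, adjusted p = 0.00318). Against the 2 h vehicle arrays, where Ncl was higher, the difference was 0.62 (adjusted p = 0.045), and with array spread as a covariate it was 0.83 (adjusted p = 0.365). At 2 h it gave 8.85, 6.04, 9.03, 8.58 and 8.34 after ANIT, so that 4 arrays exceeded all vehicle arrays (7.63 to 8.18) and replicate 2 lay far below them. The mean difference was 0.20 ± 0.44 (adjusted p = 0.847).

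In hepatocytes all 9 differences at 6 h were above 0 and smaller than those in bile duct, with none past the threshold. Of the members, Nolc1 had the largest at 6 h: 6.95, 6.93, 7.30, 7.61 and 7.13 after ANIT against 6.18, 6.27, 6.58, 6.86 and 6.39 in vehicle. All ANIT arrays were higher, by 0.73 ± 0.16 (1.66-fold, adjusted p = 0.219). Wdr43 was separated as well, at 7.49, 7.28, 7.19, 7.55 and 7.31 against 6.85, 6.70, 6.68, 6.33 and 6.93, and had the smallest p of the members, with 0.67 ± 0.14 (1.59-fold, adjusted p = 0.137). The other 7 genes lay between 0.13 (Nop56) and 0.52 (Tsr1) at 6 h, with overlapping groups. The other Nolc1 probe sets gave 0.43 ± 0.17 and 0.07 ± 0.12 at 6 h (adjusted p = 0.542 and 0.915), with overlap in both. The separation of Nolc1 at 6 h was thus limited to the probe set that represented the gene. At 2 h the 9 differences ran from 0.00 (Ddx21) to 0.44 (Nolc1), and every group pair overlapped. The second Nolc1 probe set, not counted among the 9, gave 0.58 ± 0.17 at 2 h without overlap (adjusted p = 0.519). Limma called no probe set at all in hepatocytes at either time, although 1195 at 2 h and 1285 at 6 h had an unadjusted p under 0.05. In the authors' deposited tables, after Benjamini-Hochberg adjustment, 2 and 3 probe sets passed there, none of them a member. With limma's trend and robust settings 1 member, Wdr43, passed at 6 h (adjusted p = 0.0391).

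The size of the response in the 2 regions was compared by testing the difference of the ANIT effects, with the arrays taken as independent. No label states that a bile duct and a hepatocyte array share a rat. Their array numbers run in parallel, however, such as 51 and 151 for vehicle replicate 1 at 2 h. Deviations from the group mean of arrays so matched correlated at -0.0909 to 0.129, which does not settle whether they share a rat. At 6 h the ANIT effect was larger in bile duct for 7 of 9 members, with a median difference of 1.51 on the log2 scale. Over all probe sets the median was -0.06, and 5.21% were called higher. Ddx21 differed most, by 2.41 ± 0.36 (5.33-fold, adjusted p = 0.000523), and Nop58 by 2.00 ± 0.27 (4-fold, adjusted p = 0.000225). Wdr43 (1.78), Fbl (1.67), Ncl (1.51), Tsr1 (1.32) and Nolc1 (1.01) also passed, with adjusted p from 0.00119 (Ncl) to 0.0317 (Nolc1). Rrp9 (0.70 ± 0.45, adjusted p = 0.364) and Nop56 (0.39 ± 0.27, adjusted p = 0.406) did not. These fits used 1 variance per probe set over both regions, although arrays of a bile duct group correlated less closely than those of a hepatocyte group. Standard errors of Nop58, Fbl and Ncl (0.27, 0.28 and 0.25) fell below those of their effect in bile duct alone (0.28, 0.29 and 0.27). Errors and adjusted p of the tests between regions can therefore be too small. At 2 h no member passed, against 0.24% of all probe sets called higher, and the median was 0.69. Rrp9 came nearest with 1.09 ± 0.29 (adjusted p = 0.0657), and Fbl and Ncl were at -0.13 ± 0.46 and -0.02 ± 0.54. The Nolc1 and Tsr1 calls at 6 h were the weakest: with 1 of 19 arrays left out they passed in 13 and 15 of 19 fits, the other 5 in all 19. Over 11 other settings Nolc1 passed in 4, with differences down to 0.008 against the 2 h controls (adjusted p = 0.992), and Tsr1 in 7, down to 0.64 with array spread (adjusted p = 0.44). The third Nolc1 probe set gave -0.15 ± 0.39 (adjusted p = 0.849). With the 2 h vehicle arrays as controls in both regions, chosen after the data had been seen, 4 members passed at 6 h (Nop58, Tsr1, Ddx21 and Wdr43) and the median was 0.82. Without the 2 low-spread ANIT arrays, 3 passed at 2 h (Rrp9, Wdr43 and Ddx21), with a median of 1.12.

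**Figure D3:**
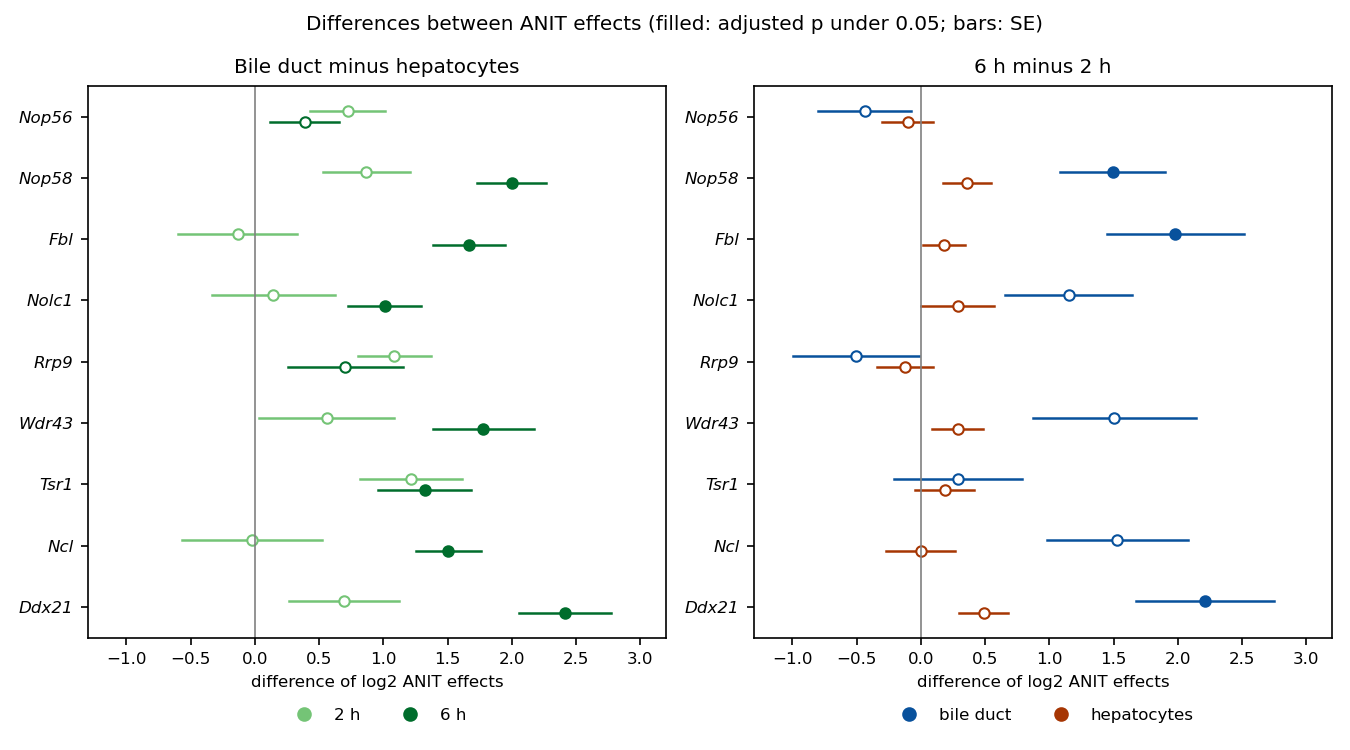
Difference between ANIT effects on the log2 scale (horizontal axes) for each factor, on the left bile duct minus hepatocytes at 2 and 6 h and on the right 6 h minus 2 h in each region, with bars for the standard error and filled points for an adjusted p under 0.05. On the left 7 of the 9 points at 6 h are filled and none at 2 h; on the right those of Ddx21, Fbl and Nop58 in bile duct are.

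Timing was compared within each region. In bile duct the ANIT effect was larger at 6 h than at 2 h for Ddx21 (by 2.21 ± 0.53, adjusted p = 0.031), Fbl (1.98 ± 0.53, adjusted p = 0.0414) and Nop58 (1.49 ± 0.41, adjusted p = 0.0434), where 2.42% of all probe sets were called higher. Wdr43 (1.51 ± 0.63), Ncl (1.53 ± 0.55) and Nolc1 (1.15 ± 0.49) were larger at 6 h without passing. Tsr1 differed by 0.29 ± 0.50 between the times, and Nop56 (-0.44 ± 0.36) and Rrp9 (-0.50 ± 0.49) had their larger effect at 2 h, neither passing (adjusted p = 0.461 and 0.535). These 3 calls did not hold without the 2 low-spread ANIT arrays at 2 h, when 0 members passed and the median fell from 1.49 to 0.71. Leaving out any single array left 0 to 3 calls. Vehicle levels entered these differences too. From 2 h to 6 h the mean of Fbl went from 6.82 to 7.21 after ANIT and from 6.79 to 5.20 in vehicle. For Nop58 it went from 7.92 to 8.46 after ANIT and from 6.96 to 6.01 in vehicle. For Ddx21 it went from 7.47 to 8.87 after ANIT and from 6.78 to 5.97 in vehicle. In hepatocytes the differences between times ran from -0.12 to 0.49, and no member passed, nor did any probe set (0%, with 1072 at an unadjusted p under 0.05). The test of whether the change over time itself differed between regions called 2.02% of all probe sets higher and no member; Fbl (1.80 ± 0.56, adjusted p = 0.0611) and Ddx21 (1.72 ± 0.57, adjusted p = 0.0774) came nearest, and the median of the 9 was 1.13.

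Vehicle animals set the base for these comparisons, and their levels were not constant. In vehicle bile duct Fbl fell by 1.59 from 2 h to 6 h on the log2 scale (adjusted p = 0.0047), Ncl by 1.10 (adjusted p = 0.014) and Nop58 by 0.95 (adjusted p = 0.0347); the other 6 members lay between -0.81 (Ddx21) and 0.59 (Rrp9) and did not pass. Of all probe sets 14% were called in either direction. Other measures moved with this comparison: from 2 h to 6 h the array spread went from 2.09 to 1.81, the 3′ minus 5′ actin difference (a measure of RNA length) from 6.06 to 4.43, the mean of the cholangiocyte markers from 8.26 to 7.45 and that of the lymphocyte and neutrophil markers from 2.99 to 3.44. Each had an exact permutation p of 0.00794, the smallest that 4 against 5 arrays can give (adjusted p = 0.0198), and their part in the result was not tested. The 3′ minus 5′ difference of GAPDH went the other way from that of actin, from 3.92 to 4.49 (exact permutation p = 0.0873, adjusted p = 0.175). Vehicle hepatocytes had 3 members higher at 6 h, Rrp9 (0.64), Wdr43 (0.45) and Ddx21 (0.44), and 3 lower, Tsr1 (-0.66), Fbl (-0.59) and Nop58 (-0.57), where 22.2% of all probe sets were called. Between regions, vehicle bile duct at 2 h was above vehicle hepatocytes for Nop56 (by 1.62), Nolc1 (0.92), Ddx21 (0.66), Fbl (0.63) and Wdr43 (0.55) and below for Tsr1 (-1.07), among 52.2% of all probe sets called. At 6 h Nop56 was again higher (2.05) and Ncl lower (-0.62), and the other 7 did not pass (53.7% called). Nop56 was the one member called in the same direction between vehicle regions at both times, at 4.14-fold at 6 h.

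Array spread moved with these results in bile duct. At 6 h it was 2.01 ± 0.042 (SD, n = 5) on ANIT arrays and 1.81 ± 0.091 (n = 4) on vehicle arrays, a difference with an exact two-sided permutation p of 0.00794 (adjusted p = 0.0529 over 10 array measures). Within ANIT bile duct at 2 h, the mean level of the 9 factors was 6.33 and 7.46 on the 2 low-spread arrays and 7.32 to 8.29 on the other 3. With spread as a covariate in 1 fit over all 4 groups from bile duct, 2 of 9 members passed at 6 h, Ddx21 (1.85, adjusted p = 0.0156) and Nop58 (2.00, adjusted p = 0.00808), the median was 1.11, and 4 passed at 2 h. The 5 genes that no longer passed at 6 h had values of 0.83 (Ncl), 0.94 (Wdr43), 1.11 (Nolc1), 1.15 (Tsr1) and 1.28 (Fbl), with adjusted p from 0.147 to 0.365. The test between regions at 6 h, with spread within each region as a covariate (added after the data had been seen), kept the same 2 genes, by 1.35 and 1.54. When vehicle bile duct at 2 h served as the control for ANIT at 6 h, also added later, 8 of 9 passed, Fbl being the exception, and the median was 1.45. Nop58 was then at 1.498 and Nolc1 at 1.07. The 3′ minus 5′ actin difference moved with the groups as well (5.08 ± 0.21 after ANIT and 4.43 ± 0.39 in vehicle, SD, exact permutation p = 0.0159, adjusted p = 0.0529). That of GAPDH lay the other way, at 4.24 ± 0.28 after ANIT and 4.49 ± 0.51 in vehicle (SD, exact permutation p = 0.397, adjusted p = 0.441). Hepatocyte markers overlapped between the bile duct groups, at 4.30 to 8.42 in vehicle and 3.63 to 7.32 after ANIT at 6 h (1 of 17 above vehicle) and 4.22 to 6.06 and 4.68 to 6.76 at 2 h (17 of 17 above, none called). With their mean as a covariate 7 members passed in bile duct at 6 h and 1 at 2 h. The part of the actin measure in these results was not tested.

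**Figure D4:**
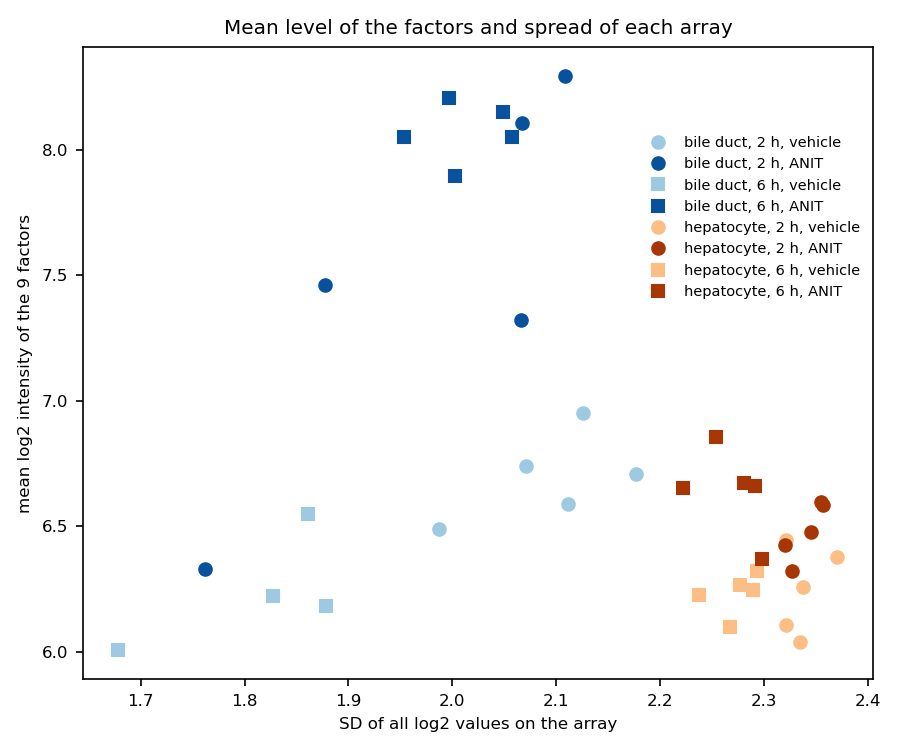
Mean log2 intensity of the 9 factors (vertical axis) against the SD of all log2 values (horizontal axis) for each of the 39 arrays. The 5 ANIT bile duct arrays at 6 h (7.90 to 8.21) lie above the vehicle bile duct arrays of both times (6.01 to 6.95), and the vehicle arrays at 6 h have lower spread than those at 2 h.

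The authors' deposited tables, which hold their own ratios and p-values, gave all 9 members a ratio above 1 in bile duct at both times. After Benjamini-Hochberg adjustment of the p-values in the authors' deposited table, 7 passed at 6 h (3.9% of all probe sets did), namely the 7 called above, with Tsr1 the largest at 4.26-fold and Ddx21 at 3.05-fold. At 2 h the authors' deposited table had 2 members past that threshold, against 1.58% of all probe sets, Nop56 (1.73-fold) and Wdr43 (1.92-fold), which are not the 2 called from the log2 values. Rrp9 stood there at 2.28-fold (adjusted p = 0.0921) and Tsr1 at 2.08-fold (adjusted p = 0.21).

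The other genes of the pathway were taken as 6 lists by role, 157 genes in all with 102 measured. In bile duct at 6 h 29 rose (28.4%, against 5.17% of all probe sets) and none fell, with a median of 0.80. For the nucleolar factors these were 7 of 9 and 1.84. Members and lists were chosen with earlier results of these data known, so the difference between them is only a description. By role, 4 of 9 partners of small nucleolar ribonucleoproteins rose, 10 of 30 small subunit factors, 11 of 39 large subunit factors, 2 of 10 genes of RNA polymerase I transcription, 1 of 5 of export and cytoplasmic maturation and 1 of 9 of the RNA exosome. Gar1, a core protein of the box H/ACA particles that guide pseudouridylation, was 7.88-fold higher (adjusted p = 0.00346), and Polr1e, a subunit of RNA polymerase I, 4.78-fold (adjusted p = 0.00404). Bysl, a small subunit factor, was 4.72-fold higher (adjusted p = 0.00158) and Ppan, a large subunit factor, 4.22-fold (adjusted p = 0.00346). At 2 h 1 of 102 rose (0.98%, against 0.258% of all probe sets), Polr1g, another polymerase I subunit, at 2.24-fold (adjusted p = 0.0355), with a median of 0.25. Taf1c, of the polymerase I initiation factor, and Gar1 were at 2.52-fold and 2.87-fold without passing (adjusted p = 0.0591 and 0.0566).

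In hepatocytes none of the 102 passed (medians 0.08 at 2 h and 0.23 at 6 h). The nearest at 6 h was Utp25, a small subunit factor, at 1.71-fold (adjusted p = 0.219), followed by Tma16 and Exosc1, a subunit of the exosome, at 1.44-fold and 1.38-fold. At 2 h they were Nob1, the nuclease that ends small subunit maturation (1.32-fold), Polr1e (1.36-fold) and Rrp7a (1.28-fold), with adjusted p from 0.523 to 0.534. Between regions the effect at 6 h was larger in bile duct for 22 of 102 (21.6%, against 5.21% of all probe sets). The smallest adjusted p belonged to Bysl (3.55-fold), Nop16 (3.01-fold) and Ebna1bp2 (2.34-fold). At 2 h none passed, Rrs1, Polr1g and Taf1c being nearest (adjusted p from 0.0689 to 0.109). The effect in bile duct was larger at 6 h than at 2 h for 3 of 102 genes, or 2.94%, near the 2.42% of all probe sets. They were Mtrex, the helicase of the nuclear exosome (5.21-fold), Ruvbl2, a chaperone of particle assembly (4.15-fold), and Pes1, a large subunit factor (3.38-fold). That change over time differed between regions for 3 of 102 as well, near the 2.02% of all probe sets, namely Mtrex (4.12-fold), Ruvbl2 (3.35-fold) and Nop10 (2.98-fold), a box H/ACA protein. In hepatocytes no gene passed between times, the nearest being Utp25 (1.82-fold), Exosc1 (1.49-fold) and Wdr12, a large subunit factor (1.39-fold).

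**Figure D5:**
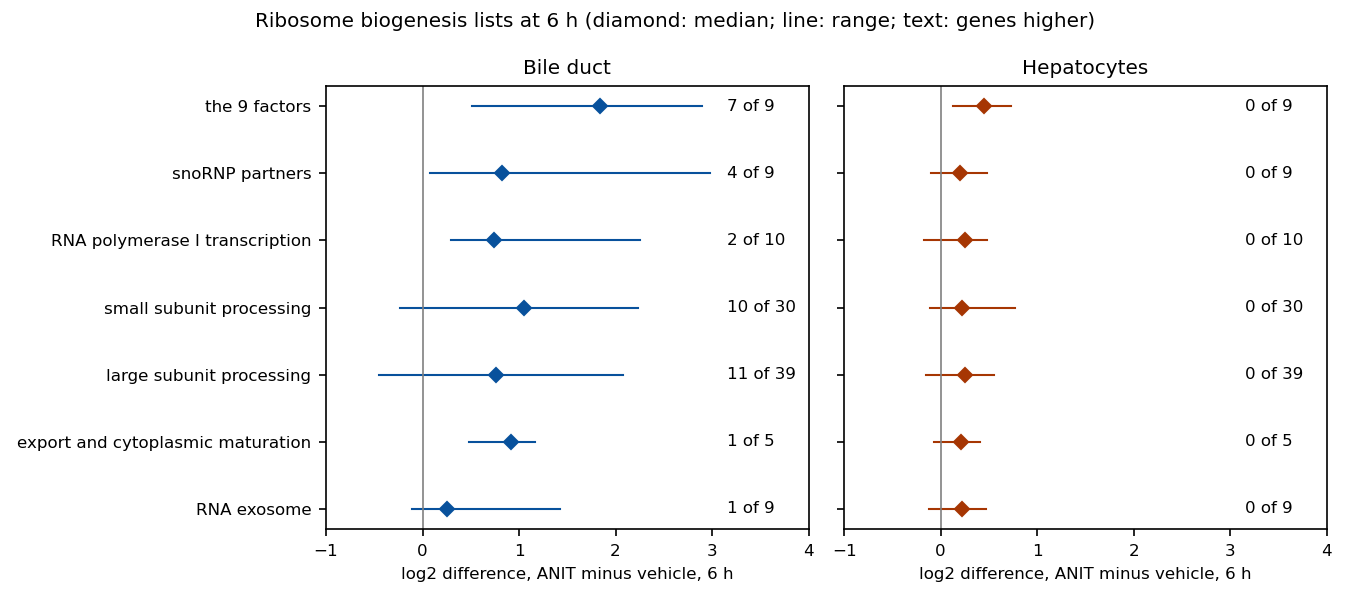
Median (diamond) and range (line) of the log2 difference of ANIT from vehicle at 6 h (horizontal axes) over the measured genes of each list, in bile duct and hepatocytes, with the number of genes called higher. The 9 factors have a median of 1.84 in bile duct and 0.45 in hepatocytes, and no list has a called gene in hepatocytes.

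The mean of the 9 factors over the 8 groups was highest in bile duct 6 h after ANIT (8.07), then in bile duct 2 h after ANIT (7.50), vehicle bile duct at 2 h (6.70), ANIT hepatocytes at 6 h (6.64) and 2 h (6.48), and lowest in vehicle hepatocytes at 2 h (6.25), vehicle bile duct at 6 h (6.24) and vehicle hepatocytes at 6 h (6.23). Every pair of neighbours in that order overlapped in the range of its arrays, and ANIT bile duct at 2 h alone ran from 6.33 to 8.29. Outside the pathway lists, the genes whose 8 group means correlated most closely with those of the 9 factors, among 5174 probe sets with enough variation, were Mybbp1a (Pearson's r 0.98), Ppp1r14b (0.97), Ywhag (0.97), Rai14 (0.97) and Stom (0.97). Mybbp1a, which encodes a nucleolar MYB-binding protein, went from 6.61 in vehicle to 8.17 after ANIT in bile duct at 6 h. These correlations are over 8 group means that share their arrays, and are a description.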

How the data were processed

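Captured bile duct and hepatocyte RNA was measured on 39 arrays of a 1-colour expression platform. The authors deposited log2 intensities made with RMA, per the submitters' processing notes; its version is not given in the sources used here. The authors also deposited, per the file headers, a log10 ratio, a fold and a p-value per probe set for each ANIT comparison. Scanner files were not used here.

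After 57 control probe sets were left out, 15866 of 15923 were fitted with limma 3.58.1 in R 4.3.3 (lmFit, eBayes, Benjamini-Hochberg adjustment over all 15866, threshold 0.05). Each comparison was fitted on its own arrays, and interaction contrasts tested differences between regions or times. Each fit used 1 variance per probe set over all its arrays, also where it held both regions. The platform annotation gave 12783 probe sets 1 symbol and 312 several, and 2771 were not listed; symbols can be old. The members and lists were chosen with earlier results of these data known. Named are all members, per comparison the 3 other pathway genes with the smallest adjusted p and, in bile duct at 6 h, the 3 largest called changes, and the 5 genes most like the members (SD of group means of at least 0.5). Array measures were compared by exact permutation. The number of arrays limits the precision. Alternatives were other normalizations, filters, fits, covariates and left-out arrays. The procedure was tested on simulated data in which each probe set had the same SD in every group. That test therefore did not cover the unequal variation of bile duct and hepatocyte arrays.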

Additional observations from a re-analysis of the deposited data

Results flagged for a closer look

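Of 72 sets of arrays (9 genes in 8 groups), 7 had 1 array far from the others, where chance flags about 1 in 20. In bile duct 6 h after ANIT, replicate 1 read 9.2 for Ddx21 (nearest 8.83). Replicate 1 of vehicle bile duct at 6 h was high for both Nop58 (6.64, nearest 5.84) and Tsr1 (6.44, nearest 5.19), toward the ANIT values. At 2 h in bile duct, vehicle replicate 1 was low for Wdr43 (6.08, nearest 6.88) and ANIT replicate 2 low for Ncl (6.04, nearest 8.34). In hepatocytes at 6 h, ANIT replicate 2 was low for Fbl (5.59, nearest 5.94) and vehicle replicate 5 high for Tsr1 (6.24, nearest 5.68).

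The ANIT effect at 6 h differed between regions, being larger in bile duct on the log2 scale by 2.414 for Ddx21, 2 for Nop58, 1.778 for Wdr43, 1.668 for Fbl, 1.505 for Ncl, 1.321 for Tsr1 and 1.009 for Nolc1. Within bile duct it differed between times, being larger at 6 h by 2.211 for Ddx21, 1.98 for Fbl and 1.492 for Nop58. Each of these was tested as an interaction in limma, with the limit on errors between regions given above.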

How the results depend on the processing

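Counts below are of the 9 members passing limma's adjusted threshold, and medians are their log2 differences; where a cause is not given by the alternative's own construction, it was not tested. In bile duct at 2 h (2 members) the count was 1 with array medians subtracted, in 1 fit over the 4 bile duct groups, with hepatocyte markers as a covariate and with the replicate block, 4 in 1 fit over all arrays and with array spread, and 5 with array weights. Left-out arrays gave 0 (without vehicle replicate 1, among others) to 4 (without ANIT replicate 2), and medians of 0.6945 to 1.111. At 6 h (7 members) the count was 2 with array spread, 8 against the 2 h controls and 7 without any 1 array; the median was 1.553 after quantile normalization, 1.114 with array spread, 1.446 against the 2 h controls and 1.74 to 1.96 with 1 array left out. Hepatocytes gave 0 at 2 h (median 0.129 to 0.2785 with 1 array left out) and, at 6 h, 1 with trend and robust settings and 0 with 1 array left out (median 0.4035 to 0.501).

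The difference between regions at 2 h (0 members) gave 1 after quantile normalization and without dim probe sets, 3 without the low-spread arrays (median 1.115), 4 with array spread within each region, and 0 to 1 with 1 array left out (median 0.457 to 1.022). At 6 h (7 members) it gave 4 against the 2 h controls (median 0.818), 2 with array spread (median 0.6397), a median of 1.173 after quantile normalization, and 5 to 7 with 1 array left out (median 1.326 to 1.568). The difference between times in bile duct (3 members) gave 0 after quantile normalization (median 0.8962), with array weights (0.9982), with array spread (0.1036) and without the low-spread arrays (0.7125), 1 with hepatocyte markers, 6 in 1 fit over all arrays, and 0 to 3 with 1 array left out (median 0.9955 to 1.721); in those 19 fits Ddx21 passed in 11, Nop58 in 4 and Fbl in 3. In hepatocytes it gave 0 throughout (median 0.1305 to 0.2695 with 1 array left out). The region by time test (0 members) gave 1 with array medians subtracted and without dim probe sets, medians of 0.6132 after quantile normalization and, reversed, -0.1342 with array spread, and 0 to 3 with 1 array left out (median 0.734 to 1.363).

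Among vehicle arrays, the regions at 2 h gave a median of 0.8706 after quantile normalization, and 5 to 6 members with 1 array left out (0.453 to 0.6125). At 6 h they gave 1 member after quantile normalization (median 0.4926, reversed) and with either replicate block, and 1 to 4 with 1 array left out (-0.3013 to -0.12). Between times, bile duct gave 1 after quantile normalization (median -0.1798) and with the replicate block, and 2 to 3 with 1 array left out (-0.7807 to -0.52); hepatocytes gave 4 to 6 (-0.0975 to 0.105). Same-numbered bile duct and hepatocyte arrays correlated at -0.0909 to 0.129 in their deviations, so the numbers were not taken to pair the arrays. Same-numbered ANIT and vehicle arrays of a region correlated at -0.199 to 0.348. Both ends of that range came from hepatocytes at 2 h, where 3 of 5 pairs were above 0.1 and other pairs had a mean of -0.0213. Of 407 other fits of single genes 332 kept their side of the threshold, 45 lost the call and 30 gained it. Where either fit had a call, 0 changed direction. A change of direction without a call in either fit was counted as kept. For Wdr43 between times in bile duct (1.506), the lowest alternative was -0.8842.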
